A study of Arabidopsis thaliana with 21 samples.

Results

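A group of 19 Arabidopsis thaliana genes, known in the gene table only by their AGI locus (the Arabidopsis gene number), had higher transcript signals in dark-grown pif3 mutant seedlings than in dark-grown wild type and moderately higher signals after 18 h of red light. They were chosen by measured values out of 13356 genes with a named probe set, of which 11798 had only a locus as symbol and were eligible. All values are intensities from 1-colour Affymetrix arrays, quantile normalized between arrays, and differences are in log2 units after a floor of 0 and an offset of 16. A member had to be at least 0.3 higher in pif3_D0 than in WT_D0 and at least 0.3 higher in pif3_D1 than in WT_D1. Its difference between WT_R18 and WT_D18 had to lie between 0.5 and 2, its difference between WT_R1 and WT_D1 had to be under 0.4 in size, and its mean in pif3_D0 had to be at least 6. AT5G16030 met these thresholds too but the definition leaves it out.

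The study has 7 groups of 3 biological replicates, all whole seedlings of ecotype Col-0. The pif3 mutant was collected after 4 days of darkness (pif3_D0) and after 1 h more (pif3_D1), and its allele is not given in the sources used here. Wild type was moved from 4 days of darkness to continuous red light for 1 h (WT_R1) or 18 h (WT_R18), or stayed dark for 4 days (WT_D0), 1 h more (WT_D1) or 18 h more (WT_D18). All groups shared the sowing on medium without sucrose, a dark cold period of 4 days at 4 °C, a 3 h white light pulse that starts germination, and growth at 21 °C. The mutant was not exposed to red light in these arrays. In whole seedlings, fewer cells of a type and less RNA per cell cannot be told apart.

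The PIF3 protein, a DNA-binding regulator of the bHLH family, accumulates in the dark, where it helps to hold seedlings in the pale, elongated etiolated state. Red light converts the phytochrome photoreceptors to their active form, which binds PIF3 in the nucleus and leads to its degradation. Loss of PIF proteins in darkness is known to give seedlings some traits of light-grown ones, and greening in light brings up the nuclear genes of the chloroplast. No named probe set measures PIF3, so the mutation was not checked in the arrays and the pif3 arrays rest on their labels.

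The other technical and marker signals set limits on what follows. Over the 21 arrays the deposited medians ran from 36.13 to 102.9 units, and arrays of a group correlated at 0.977 to 0.992. The 25S rRNA control probe set lay between 4289 and 5410 units in the 6 pif3 arrays. It was low in 1 array of each wild-type dark group: replicate 1 of WT_D0 had 623.9 units, replicate 2 of WT_D1 had 689 units and replicate 1 of WT_D18 had 365.2 units. The other 6 wild-type dark arrays had 2043 to 4927 units. WT_R1 had 127.9 to 465.8 units and WT_R18 had 2650 to 3423. Of 6 greening markers, all 6 were measured, and their summed signal was 11750 to 12020 in pif3_D0 and 8002 to 10010 in WT_D0, 11730 to 12360 in pif3_D1 and 9373 to 10290 in WT_D1, and 26550 to 29410 in WT_R18 and 7815 to 9344 in WT_D18. Of 16 markers of ungerminated seed, 3 were measured (PAP85, M10 and M17), and their summed signal was 688.7 to 1080 in pif3_D0 and 1213 to 1858 in WT_D0, 878.7 to 1220 in pif3_D1 and 1615 to 2153 in WT_D1, and 136.9 to 244.9 in WT_R18 and 1924 to 2924 in WT_D18. By limma all 6 greening markers were called higher and all 3 seed markers lower in WT_R18, 1 greening marker (LHCB4.2) was called in pif3_D0, and 0 seed markers were called in pif3_D0 or pif3_D1, where 3 and 2 had an unadjusted p under 0.05. The summed greening signal did not hold for each marker. Against wild type, LHCB4.3 differed by -0.17 log2 units in pif3_D0 and -0.03 in pif3_D1, while the other greening markers were above 0 at both times. The part of the rRNA signal, the greening markers and the seed markers in the members' differences was not tested.

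The gene table describes a product for 1 of the 19 members. AT5G58330 is listed there as an NADP-dependent malate dehydrogenase, an enzyme that in chloroplasts reduces oxaloacetate to malate with NADPH and thereby lets surplus reducing power leave the organelle. No product or role is given for the other 18, and all 19 are annotated as protein-coding. They lie on chromosomes 1 (4 genes), 3 (5 genes), 4 (3 genes) and 5 (7 genes). Chromosome 2, which carries 16.4% of the eligible genes with a listed chromosome, holds none. All 19 were measured by probe sets of the plain type, and none had a second named probe set that could have served as an independent reading. Intensities of different probe sets are not amounts that can be set against each other. Mean intensities over the 21 arrays ran from 41.69 units for AT3G19850 to 1569 units for AT5G02160.

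The differences that chose the members are a description and were not used as a test. In the mutant they were modest: the ratio of mean intensities of pif3_D0 over WT_D0 ran from 1.24 to 2.17 with a median of 1.45, and that of pif3_D1 over WT_D1 from 1.24 to 2.1 with a median of 1.35. Red light gave the larger ratios for most members, with WT_R18 over WT_D18 between 1.51 and 4.36 and a median of 2.06. On the log2 scale the medians over the members were 0.46 at D0, 0.38 at D1 and 0.93 at 18 h of red, beside 0, 0 and -0.04 over all 22746 probe sets.

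Array by array, most members separated mutant and wild type at one time or both. The 3 pif3_D0 arrays all lay above the 3 WT_D0 arrays for 14 of 19 members (7.17% of all probe sets), and the 3 pif3_D1 arrays above the 3 WT_D1 arrays for 13 of 19 (7.47%). At both times this held for 9 members, at D0 alone for 5, at D1 alone for 4 and at neither time for AT3G06470. The 3 WT_R18 arrays lay above the 3 WT_D18 arrays for 19 of 19 (19.6%). By limma, with adjustment over all probe sets, 1 of 19 members was called higher in pif3_D0 (0.224% of probe sets), 0 of 19 in pif3_D1 (0.0264%) and 18 of 19 in WT_R18 (14.1%). The member called at D0 was AT5G19940 and the one not called at 18 h of red was AT1G64430. At 1 h of red light 0 of 19 were called in either direction, against 4.94% of probe sets. At an unadjusted limma p under 0.05, 15 members passed at D0 (12% of probe sets), 12 at D1 (7.51%) and 1, AT3G19850, at 1 h of red light (14.9%). Since these contrasts chose the members, nothing is read from any of these counts, adjusted or not.

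**Figure D1:**
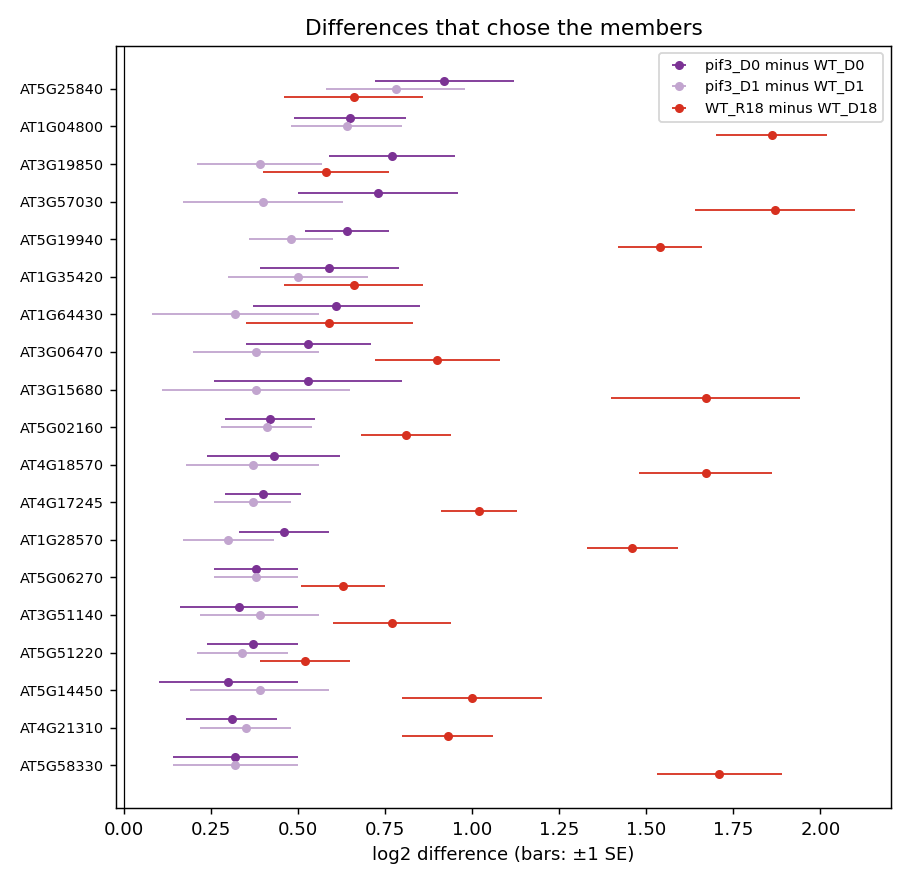
log2 differences of the 19 members (rows, ordered by their mean mutant difference) for pif3_D0 minus WT_D0 (dark purple), pif3_D1 minus WT_D1 (light purple) and WT_R18 minus WT_D18 (red), with bars of 1 SE from limma (3 arrays a group). Mutant differences lie between 0.3 and 0.92, and red light differences spread from 0.52 to 1.87 with no common order.

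AT5G25840 had the largest mutant difference of the group and a smaller one in light. It had 137.7, 107.5 and 121.3 units in pif3_D0, against 56.31, 69.95 and 45.65 in WT_D0. In pif3_D1 it had 62.89, 59.75 and 113.3 units, against 35.18, 43.93 and 33.35 in WT_D1. All mutant arrays lay above the wild-type arrays of the same time, while replicate 3 of pif3_D1 stood well above the other 2. After 18 h of red light it had 90.49, 82.58 and 65.87 units, against 46.17, 55.09 and 33.24 in WT_D18. The log2 differences were 0.92 at D0, 0.78 at D1 and 0.66 in red light (SE 0.20 each). Besides AT5G25840, only AT3G19850 (0.77 and 0.58) and AT1G64430 (0.61 and 0.59) had a larger log2 difference at D0 than in red light.

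AT1G04800 differed in the mutant by about the same amount at both times and had one of the largest light differences. In pif3_D0 it had 403.2, 515 and 424.3 units, against 224.2, 356.8 and 265.7 in WT_D0. In pif3_D1 it had 400.2, 333.6 and 484.9 units, against 256.6, 258.7 and 242.9 in WT_D1. The arrays did not overlap at either time. WT_R18 had 632.1, 739.7 and 704.6 units and WT_D18 had 193.5, 173.1 and 170.5. The log2 differences were 0.65, 0.64 and 1.86 (SE 0.16 each).

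AT5G19940 had an SD of at most 0.19 log2 units within any group, the lowest such maximum of the 19. Its limma SE of 0.12 was above the 0.11 of AT4G17245. Its signal was 1506, 1618 and 1387 units in pif3_D0 against 828.2, 1054 and 1004 in WT_D0, and 1342, 1290 and 1395 units in pif3_D1 against 1005, 1062 and 821.6 in WT_D1. Even the lowest of the 6 mutant arrays (1290) lay above the highest of the 6 wild-type ones (1062). In WT_R18 it had 2926, 2430 and 3038 units, against 1033, 814.5 and 1014 in WT_D18, so that the mutant signal in darkness lay between that of dark and red-lit wild type. Such full separation of the 6 mutant from the 6 wild-type arrays was found for 4 members, the others being AT1G35420, AT5G51220 and AT4G21310. The same values chose the members and the share of all probe sets is not given, so nothing is read from this count.

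AT3G57030 had the largest red light difference, with 337.4, 201.7 and 333.5 units in WT_R18 against 72.33, 54.04 and 73.57 in WT_D18. The ratio of the means was 4.36. In pif3_D0 it had 86.07, 152.9 and 139.5 units against 65.4, 74.67 and 63.92 in WT_D0. In pif3_D1 the values of 78.76, 131.5 and 83.77 units overlapped those of 66.18, 62.25 and 78.83 in WT_D1.

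AT1G35420 reached about the same signal in dark mutant as in red-lit wild type. It had 468.3, 431.5 and 512.4 units in pif3_D0 against 249.1, 296.8 and 392.7 in WT_D0, and 484.9, 452.1 and 470.8 units in pif3_D1 against 311.5, 297.4 and 378 in WT_D1. In WT_R18 it had 529.6, 330.9 and 523.3 units, against 322, 220.3 and 309.6 in WT_D18, and replicate 2 was the lowest array of both groups. The log2 difference between WT_R18 and pif3_D0 was -0.06 and the arrays of these groups overlapped.

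AT5G58330, the malate dehydrogenase gene, had the smallest mean mutant difference over D0 and D1 (0.32) beside a strong light difference. It had 602.5, 648.8 and 618.9 units in pif3_D0, against 370.6, 533.4 and 610.1 in WT_D0, which overlap. In pif3_D1 it had 579.9, 598.3 and 619.8 units, just above the 400.9, 479.7 and 568.3 of WT_D1. After 18 h of red light it had 1389, 1231 and 1553 units, against 465.2, 344.2 and 435.9 in WT_D18. The spread of the mutant arrays was small, at an SD of 23.5 in pif3_D0 and 20 in pif3_D1, against 122 in WT_D0 and 83.7 in WT_D1. Without WT_D0 replicate 1, WT_D1 replicate 2 and WT_D18 replicate 1, the wild-type dark arrays with low 25S rRNA signal, its difference at D0 was 0.12 against 0.32 with all arrays.

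**Figure D2:**
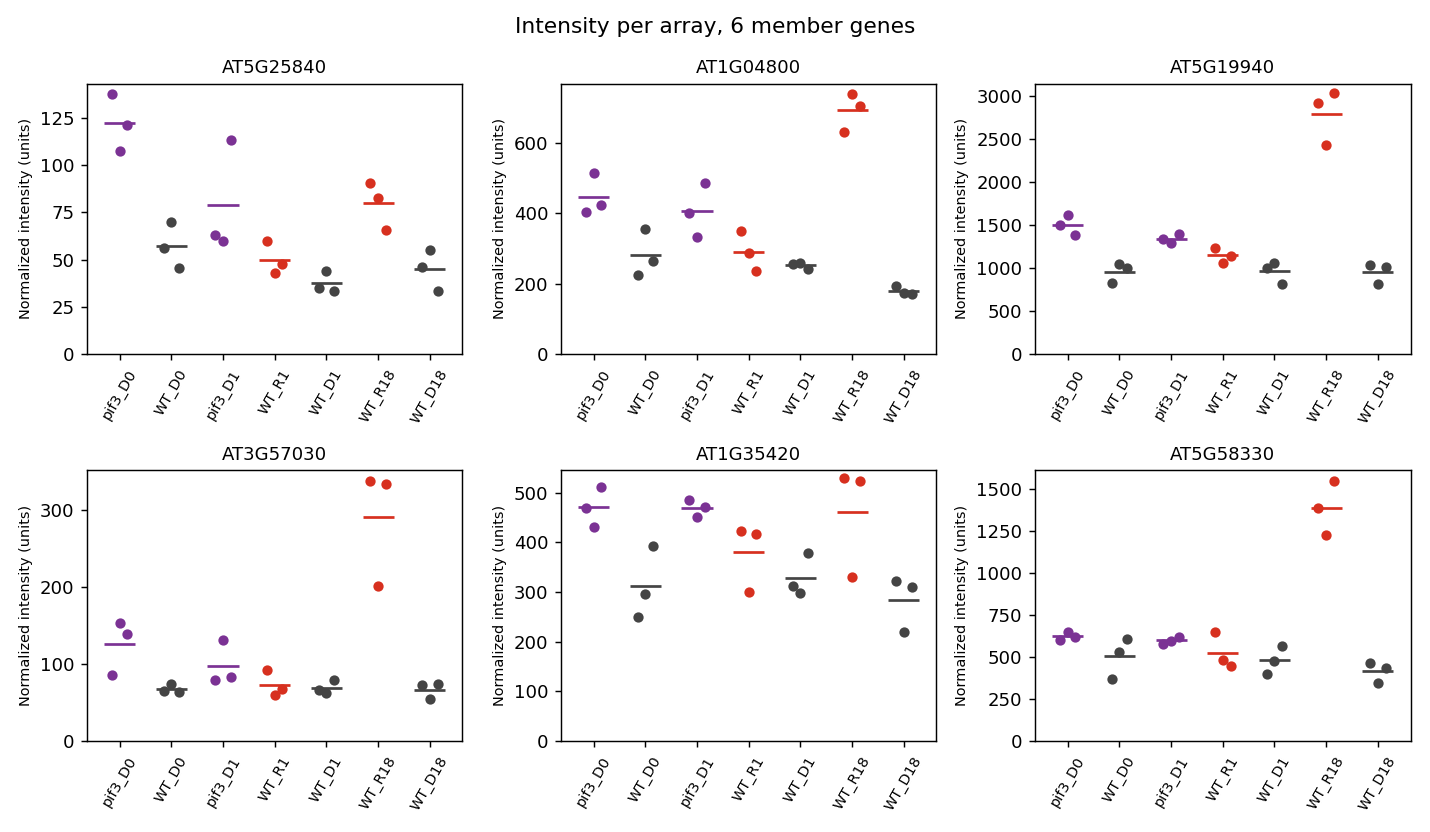
Quantile-normalized intensity (vertical axis, units, from 0) of 6 members in each of the 21 arrays, with each mutant or red light group left of the dark wild-type group it is set against. Points are arrays and lines are means of 3. AT5G25840 is highest in pif3_D0, AT1G35420 is at a similar level in both pif3 groups and WT_R18, and the other 4 are highest in WT_R18.

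The remaining members fall between these patterns. AT3G15680 (log2 difference 1.67), AT4G18570 (1.67) and AT1G28570 (1.46) had red light differences near the top of the group, with mutant differences at D0 of 0.53, 0.43 and 0.46. AT3G15680 had the widest spread, with an SD of up to 0.57 log2 units within a group and 37, 9.152 and 29.7 units in WT_D18, a dim and uneven group. AT4G17245 had 693.1, 583.5 and 656.2 units in pif3_D0 and 468.3, 461.4 and 522 in WT_D0, and its light difference was 1.02. AT5G02160 differed by 0.42 at D0 and 0.41 at D1, but its 3 pif3_D0 arrays (2070, 1362 and 1922 units) overlapped those of WT_D0 (1166, 1319 and 1442). AT3G06470 and AT1G64430 overlapped between pif3_D0 and WT_D0 as well, at differences of 0.53 and 0.61. AT5G06270, AT3G51140, AT5G51220, AT5G14450 and AT4G21310 had mutant differences of 0.3 to 0.39 at either time and light differences of 0.52 to 1.

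The thresholds on the mutant differences had genes close on both sides, while the nearest genes outside the red light bounds lay further off. At D0 the nearest member was AT5G14450 (0.304) and the nearest gene outside, among those that met every other condition, was AT5G62720 (0.288). At D1 they were AT1G28570 (0.301) and AT1G11860 (0.299). For 18 h of red light the lower bound had AT5G51220 (0.522) inside and AT5G64970 (0.369) outside, and the upper bound had AT3G57030 (1.867) inside and AT5G44580 (2.656) outside. At 1 h of red light AT3G19850 (0.399 in size) was inside and AT3G47250 (0.444) outside, and the level threshold had AT3G19850 (6.159) inside and AT5G16240 (5.983) outside. AT3G19850 thus lay near several thresholds, and it met the definition in 12 of 21 fits that each left out 1 array. Under the same fits AT5G25840, AT1G04800, AT5G19940, AT5G02160 and AT5G06270 met it in all 21, 11 further members in 18 to 20, and AT3G51140 and AT5G58330 in 15 and 17.

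Mutant and light differences had no common order within the group. Across the 19 members the mean mutant difference and the 18 h red light difference correlated at r = 0.02, within the narrow window that the definition allows and over members that share all their arrays. The mean mutant difference was 18.7% to 129% of the red light difference on the log2 scale, with a median of 37.6%. Between D0 and D1 the mutant differences correlated at r = 0.67 over the same 19 genes, chosen on both.

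The level in WT_R18 was the highest of the 7 group means for 15 of 19 members. AT5G25840, AT1G35420 and AT1G64430 had their highest mean in pif3_D0 and AT5G06270 in pif3_D1. All 3 WT_R18 arrays lay above all 3 pif3_D0 arrays for 12 members and below them for AT5G25840, and the groups overlapped for the other 6. Against pif3_D1, WT_R18 lay above for 13 members and overlapped for 6. At the low end the neighbouring groups were close: 9 members had their lowest mean in WT_D18, 4 in WT_D1, 4 in WT_R1 and 2 in WT_D0. The definition did not pair WT_R18 with the earlier dark time WT_D0. WT_R18 minus WT_D0 was 0.39 to 1.91 with a median of 1.05, and 16 of 19 members lay above WT_D0 in all arrays. The definition asked for a WT_D0 below pif3_D0 and a WT_R18 above WT_D18, which favours a large difference here. The share of all probe sets is not given for these comparisons with WT_R18. The definition asked for at least 0.5 in red light but 0.3 in the mutant, which favours a high rank of WT_R18. Since the arrays themselves entered the definition, these counts are a description as well and nothing is read from them.

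At 1 h of red light the definition held the differences under 0.4 in size, and they ran from -0.4 for AT3G19850 to 0.3 for AT5G25840 with a median of 0.06, which was -0.05 without WT_R1 replicate 1. They were above 0 for 13 of 19 members, where 41.3% of all probe sets were. WT_D1 is the dark group of this contrast and of the mutant contrast at D1, so a low WT_D1 signal raises both. AT3G19850 had 19.77, 15.92 and 9.644 units in WT_R1 against 24.91, 29.35 and 20.19 in WT_D1.

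**Figure D3:**
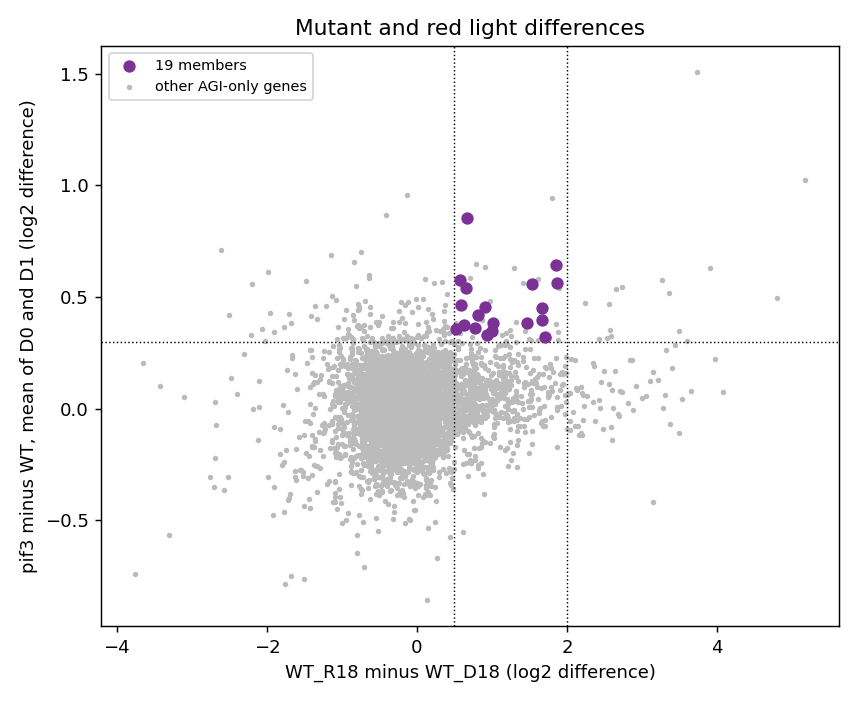
Mean mutant difference over D0 and D1 (vertical axis, log2) against the difference between WT_R18 and WT_D18 (horizontal axis, log2) for the AGI-only genes with a pif3_D0 mean of at least 6. The 19 members are purple and dotted lines mark 0.3, 0.5 and 2. Some grey points inside the box failed the mutant threshold at one time or the limit at 1 h of red light.

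Time in darkness was not used to choose the members, although its groups enter the definition through other contrasts. After 18 h more of darkness, 0 of 19 members were called in wild type (limma, adjusted p from 0.18 to 1), where 0.044% of probe sets were. At an unadjusted p under 0.05 there were 2 of 19, where 13.3% of probe sets passed. AT1G04800 was -0.59 (95% interval -0.94 to -0.24, adjusted p = 0.18), with 193.5, 173.1 and 170.5 units in WT_D18 and 224.2, 356.8 and 265.7 in WT_D0. AT3G19850 was 0.64 (95% interval 0.26 to 1.01, adjusted p = 0.18), with 45.61, 52.28 and 49.9 units in WT_D18 and 29.96, 24.69 and 23.5 in WT_D0. Neither gene's arrays overlapped, and the genes differed in opposite directions. The 3 WT_D18 arrays of AT5G14450 also lay below its 3 WT_D0 arrays. The share of all probe sets without overlap is not given, and the 10.5% of members with an unadjusted p under 0.05 by limma was below the share of all probe sets. No change of the group is read from these genes. Without WT_D0 replicate 1, AT1G04800 was called at -0.73 (SE 0.17, limma adjusted p = 0.037), and 575 probe sets were called in place of 10. The median over the members was -0.09.

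One more hour of darkness gave no called member in either genotype. In wild type 0 of 19 were called (0% of probe sets), and 1 of 19 had an unadjusted p under 0.05 (7.44%). That gene was AT5G25840, at -0.45 (95% interval -0.87 to -0.03, limma adjusted p = 0.63). In pif3, 0 of 19 were called (0.185%), and 3 of 19 had an unadjusted p under 0.05 (13.2%), namely AT5G25840 at -0.58 (95% interval -1 to -0.16, limma adjusted p = 0.21), AT3G19850 at -0.43 (adjusted p = 0.31) and AT1G28570 at -0.31 (adjusted p = 0.33). With no scaling between arrays the median of all probe sets in this contrast was 0.39, and AT3G19850 and AT1G28570 were at 0.04 and 0.2, still below that median, while AT5G25840 was below 0. The arrays of AT5G25840 overlapped between pif3_D1 and pif3_D0. Its 3 WT_D1 arrays lay below its 3 WT_D0 arrays, as did those of AT5G51220 and AT4G21310. For AT5G06270 the 3 pif3_D1 arrays lay above the 3 pif3_D0 arrays. The share of all probe sets is not given for these comparisons either, so nothing is read from them. The intervals of the members reached from -0.87 to 0.62 in wild type and from -1 to 0.66 in pif3.

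The change of the mutant difference between D0 and D1 is built from the same values that chose the members, each of which had to be at least 0.3, so the choice limits it and it is given as a description. As the difference of both differences, 0 of 19 members were called (0% of probe sets) and 0 of 19 passed an unadjusted p of 0.05 (3.77%). AT3G19850 had the largest value, at -0.38 (95% interval -0.91 to 0.15), and the median was -0.06. The intervals ran from -1.03 to 0.7 over the members, and neither a change nor equality is read from them.

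**Figure D4:**
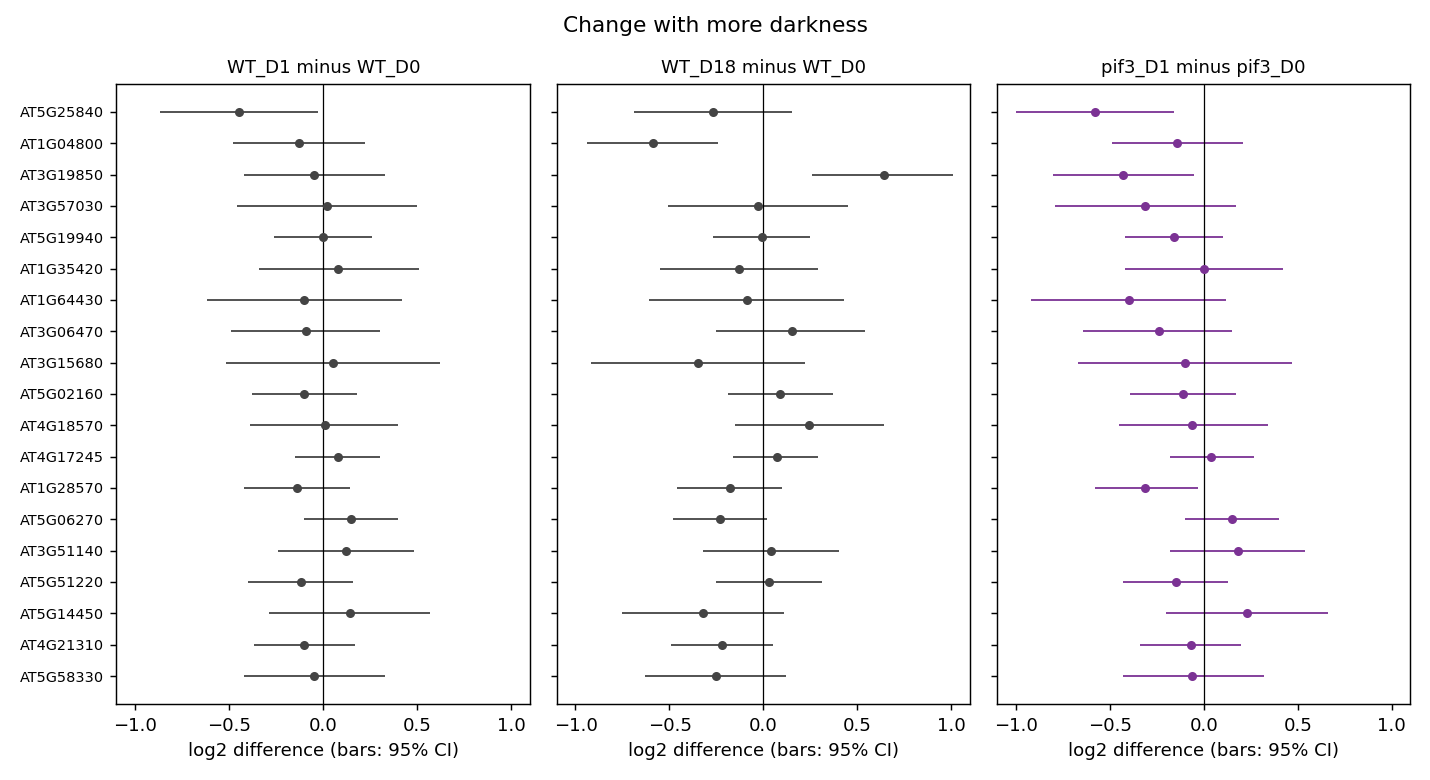
log2 differences of the 19 members between dark times (WT_D1 minus WT_D0, WT_D18 minus WT_D0 and pif3_D1 minus pif3_D0), with 95% intervals from limma (3 arrays a group). AT1G04800 and AT3G19850 had the lowest and highest values at 18 h more darkness, at -0.59 and 0.64. Neither was called, and most other intervals span 0.

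Set against the rest of the eligible genes, the group is one slice of the genes with higher signals in pif3. Of the 5657 eligible genes with a mean of at least 6 in pif3_D0, 96 met both mutant thresholds. Among these 96, 25 (26%) had a red light difference between 0.5 and 2, 12 (12.5%) had one of 2 or more and 59 (61.5%) had one under 0.5. Over all 5657 genes the shares were 10.7%, 1.38% and 87.9%. Of the 487 genes that met both light conditions, 19 were at least 0.3 higher in pif3 at both times and 1 was at least 0.3 lower at both, while among all 5657 genes 96 were higher and 68 lower by that measure. The mutant contrasts and the 18 h light contrast share no arrays, but the limit at 1 h of red light shares WT_D1 with the mutant contrast at D1. The level of 6 was asked of pif3_D0, so dim genes could enter through a higher mutant signal, which favours higher over lower. AT3G19850 (6.16 in pif3_D0, 5.39 in WT_D0) and AT3G15680 (6.17 and 5.65) reached 6 in pif3_D0 but not in WT_D0. These counts are a description, no test was made of them and no link of mutant and light differences is read from them.

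The same thresholds were met by 4 genes that have a symbol, and by AT5G16030. LHCB4.1, an antenna protein of photosystem II, had mutant differences of 0.40 at D0 and 0.35 at D1 and a light difference of 1.12. The plastid gene psbA, for the D1 protein of the photosystem II reaction centre, had 0.34, 0.34 and 1.14. GLR3.6, a glutamate receptor gene, had 0.40, 0.48 and 0.97, and UPP, a uracil phosphoribosyltransferase gene, had 0.47, 0.36 and a light difference just under the upper bound of 2. In the dark-time test at 18 h, psbA was at -0.41 (adjusted p = 0.36) and AT5G16030 at 0.63 (adjusted p = 0.15), and none of the 5 was called by limma in any of the 4 dark contrasts.

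Photosynthesis genes with a symbol were taken as a pathway for comparison, from a list with 72 entries of which 17 were measured. Of these 17, 1 (LHCB4.2, log2 difference 0.45, SE 0.08, limma adjusted p = 0.027) was called higher in pif3_D0, 0 in pif3_D1 and 16 in WT_R18, all but PORB, and none was called lower. At an unadjusted p under 0.05 by limma, 7 of the 17 passed at D0 (12% of probe sets) and 5 at D1 (7.51%). All 6 greening markers are among these 17 genes. At 1 h of red light 4 of the 17 were called higher. The list's medians were 0.27 at D0, 0.19 at D1, 1.56 at 18 h and 0.21 at 1 h of red light. Of 39 entries of the phytochrome and PIF signalling list only 5 were measured (HYH, FHL, HAT2, IAA29 and GI), with 0 called by limma in the mutant at either time (1 at D0 and 0 at D1 at an unadjusted p under 0.05) and all 5 called at 1 h and 18 h of red light, 4 of them lower at 18 h.

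Genes beside the members on the chromosome were read by the same measure. The RefSeq gene order gave 38 immediate neighbours, of which 21 were measured, and 0 of these 21 met both mutant thresholds, where 1.5% of all genes did, a share too low for a count of 0 among 21 to say anything about the neighbours. A red light difference of at least 0.5 was found for 4 of the 21 (19%), beside 10.5% of all genes, and no member neighboured another. AT3G57020, next to AT3G57030 and chosen here after its values were seen, differed by 3.15 at 18 h of red light (limma adjusted p = 1.6e-07) and by -0.43 and -0.41 in pif3 at D0 and D1 (SE 0.26, adjusted p = 0.56 and 0.79). OLEO3, an oleosin gene next to AT5G51220 and also chosen after its values were seen, was at -2.53 in WT_R18 against WT_D18 (limma adjusted p = 2.1e-09), where AT5G51220 was at 0.52.

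With the 3 low wild-type dark arrays left out, the members' median difference was 0.38 at D0, 0.38 at D1 and 1.06 at 18 h of red, and 15 of the 19 still met the definition. AT1G28570, AT3G51140, AT5G14450 and AT5G58330 did not. At D0 the difference of AT3G15680 was 0.32 without these arrays and 0.53 with all. With the log2 rRNA signal as a covariate the medians were 0.45, 0.41 and 0.96, and 17 of the 19 met the definition.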

How the data were processed

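Total RNA (5 ug per sample) was labelled with biotin and hybridised to Affymetrix arrays, 1 sample per array, per the labels' protocols. The deposited values are linear intensities, 1 for each of 22810 probe sets on 21 arrays. The sources used here name neither the authors' summary software nor their scaling, and each array holds 9.78% to 12.1% negative values. No detection calls were used, and the number of arrays limits the precision.

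Intensities were quantile normalized between arrays before taking logs, floored at 0 and transformed as log2(value + 16), which understates differences of dim probe sets. limma 3.58.1 in R 4.3.3 (lmFit, eBayes) fitted 7 group means over all arrays, with Benjamini-Hochberg adjustment over 22746 probe sets after 64 controls were set aside. A call is an adjusted p under 0.05, two-sided. The steps were tested on simulated data. Probe sets were named through the platform annotation (13513 with 1 gene, 503 with several, 8730 not listed) and RefSeq symbols of assembly TAIR10.1, with the brightest probe set representing a gene.

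The members and lists were chosen with earlier results of these data known. Named genes followed a rule: the 8 largest mutant and 8 largest red light differences, the 5 brightest, tested members, and those nearest a threshold. AT5G06270, AT3G51140 and AT4G21310 fall outside it and were named after their values were seen. Grouping by product was not possible, and no promoter or protein sequence was used here. Alternatives were offsets of 8 and 64, other scalings, a 25S rRNA covariate, a dim filter at 64 units, fewer groups, a replicate block and leaving out each array. Same-numbered arrays did not deviate together (median correlation -0.009, over 0.1 in 11 of 63 pairs).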

Additional observations from a re-analysis of the deposited data

How the results depend on the processing

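With an offset of 64, 12 genes met the definition and 7 of them were among the 19, and with no scaling between arrays 10 met it and 7 were among the 19. A larger offset shrinks differences by construction, and the cause of the unscaled count was not tested. Without scaling the members' median difference between pif3_D0 and WT_D0 was 0.24 against 0.46, where the median of all probe sets moved to -0.16. In the dark contrasts the unscaled median of all probe sets was 0.01 to 0.39, and differences there are read relative to it. Other settings gave 17 to 25 genes. The mutant and 18 h light contrasts were recomputed under the alternatives, with offset 64, no scaling and the fits without 1 array included. Of the 1596 values of members, 0 were at or below 0 and 16 moved by at least 1 SD. These contrasts chose the members and the fits share most arrays, so values above 0 are largely fixed by the choice and are no support. Leaving out 1 array gave 16 to 28 genes, with 12 to 19 of the members among them, and 7 members were lost without pif3_D1 replicate 3. In the 4 dark contrasts 0 members were called under every setting, the replicate block included, except that leaving out 1 array gave 0 to 1 called at 18 h more darkness. That 1 call, AT1G04800 without WT_D0 replicate 1, stands in the report. The replicate numbers were not treated as pairs. With 3 arrays a group, the members' median SE was 0.18 log2 units in the 3 contrasts between dark times and 0.25 in the change of the mutant difference, so that differences of the size that chose the members were often within their intervals.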
